A study of Rattus norvegicus with 74 samples.

Results

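The let-7 family was followed in the kidney of F344 rats, an inbred laboratory strain, from 2 to 104 weeks of age. The members were all mature microRNAs (miRNAs) on the array with a rat let-7 name and the 5p strand, namely rno-let-7a-5p, rno-let-7b-5p, rno-let-7c-5p, rno-let-7d-5p, rno-let-7e-5p, rno-let-7f-5p and rno-let-7i-5p, plus rno-miR-98-5p, which shares their seed. They are written below without the rat prefix and, except where strands are compared, without the strand. These are 8 of the 311 miRNAs that were detected on at least 1 of 74 arrays, and all 8 were detected on every array; let-7g was not analysed here. Each array held total RNA from the homogenized whole kidney of 1 untreated rat, labelled with Cy3 (1 colour). Females and males were sampled at 2 weeks, in early life at 5, 6 and 8 weeks, as adults at 15 and 21 weeks, and late in life at 78 and at 104 weeks, with 4 females at 2, 5, 8 and 21 weeks, 4 males at 8 and 104 weeks, and 5 rats in every other group, which makes 36 female and 38 male arrays in 16 groups. All rats were of the same inbred strain, and each was sampled at 1 age only. The study asked how kidney miRNA levels differ with age and between the sexes, and the whole-kidney sample does not separate the cell types within it, so that fewer cells of a type and less miRNA per cell cannot be told apart.

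The let-7 miRNAs are among the first miRNAs recognised, as regulators of developmental timing in the nematode. In vertebrates the family has several genes whose products share one seed, the bases that pair with target messages, and the members are therefore held to repress overlapping targets, among them growth and cell cycle genes. The RNA-binding protein LIN28 blocks maturation of most let-7 precursors in embryonic tissue, and mature let-7 rises as tissues differentiate. The kidney of a young rat is still growing and maturing, and the youngest age here is compared with the weeks that follow it.

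The mature sequences are shown because they define the family and show how little separates one member from another. All 8 were found in the RefSeq table for the rat assembly GRCr8, each 22 bases long, and the seed (bases 2 to 8, in capitals) was the same in 8 of 8.
rno-let-7a-5p: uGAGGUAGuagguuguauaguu
rno-let-7b-5p: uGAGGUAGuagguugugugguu
rno-let-7c-5p: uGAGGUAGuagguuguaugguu
rno-let-7d-5p: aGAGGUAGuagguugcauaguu
rno-let-7e-5p: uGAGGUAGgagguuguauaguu
rno-let-7f-5p: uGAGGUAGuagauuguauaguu
rno-let-7i-5p: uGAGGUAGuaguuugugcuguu
rno-miR-98-5p: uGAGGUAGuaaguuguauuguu
Written with the base of let-7a first and positions counted from the 5′ end, let-7c differs from let-7a by A19G, let-7e by U9G and let-7f by G12A. The differences are A17G and A19G in let-7b, U1A and U16C in let-7d, G11A and A19U in miR-98, and G12U, A17G, U18C and A19U in let-7i. Each miRNA was read by 2 probes of its own, and how much signal a member's probes took from a near-identical relative was not measured here.

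These 8 mature miRNAs come from 11 genes in that table, several of them close together in the genome. let-7a is encoded at chr8:50805219-50805240 and at chr17:16320145-16320166, and the second copy lies 2033 bases from the hairpin of let-7d (mature sequence at chr17:16322273-16322294), with a copy of let-7f between them at chr17:16320508-16320529. let-7b (chr7:118684044-118684065) and a copy of let-7c (chr7:118683636-118683657) lie side by side, and the other copy of let-7c is at chr11:29688127-29688148. let-7e (chr1:67350243-67350264) lies between miR-99b, whose hairpin is 95 bases away, and miR-125a, 353 bases away. The other copy of let-7f (chrX:24460052-24460073) and miR-98 (chrX:24460663-24460684) have hairpins 520 bases apart. let-7i (chr7:60527935-60527956, minus strand) is the only member of the 8 placed on the minus strand. All are non-coding miRNA genes.

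The values below are normalized intensities: the background-subtracted signal of a miRNA divided by the 75th percentile of the 311 miRNAs on the same array, which ran from 81.2 to 283 in raw intensity. They are compared across arrays for 1 member at a time, because different probes differ in brightness and their levels do not rank the members. Differences are on the log2 scale, and a member passed where limma gave an adjusted p (Benjamini-Hochberg over 311 miRNAs) under 0.05. A second count also asked for a fold of at least 1.5. Between 190 and 264 miRNAs were detected per array, no spot was saturated, and no member was at the floor used for undetected miRNAs. The labels only number the replicates, and the study states that the kidneys were from independent animals. Arrays lay on 10 slides. The ages 2 to 8 weeks filled 4 slides alone and the ages 15 to 104 weeks 5, and 1 slide of young rats also held 1 female of 15 weeks.

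Kidney tissue and single arrays were checked on marker miRNAs. All 8 renal epithelial markers, among them miR-192 and the miR-200 family, were detected on all 74 arrays, while the muscle miRNAs miR-1 and miR-133a and the neuronal miR-124 were detected on none. Another muscle miRNA, miR-206, was detected on 17 arrays (highest 0.041) and another neuronal one, miR-9a, on all 74 (0.0682 to 0.235). The 2-week male replicate 1 stood apart on miR-122, the hepatocyte miRNA, with 23.6. The next arrays were male 6 weeks replicate 1 (5.82) and male 5 weeks replicate 2 (3.91), and no other array was above 0.672. Results at 2 weeks in males are therefore given with and without it. The male 104 weeks replicate 6 was the lowest of all 74 arrays for 7 of 8 members, and results that rest on it are likewise given both ways.

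Over the whole life span the range of the group means differed between members. The ages of 2 to 8 weeks and of 15 to 104 weeks lay on different slides apart from 1 array. Across these 2 sets of ages, the folds and F tests of this paragraph cannot tell age and slide apart. The mean of the highest age group exceeded that of the lowest by 1.17-fold (let-7d) to 1.42-fold (let-7e) in females and by 1.21-fold (miR-98) to 1.67-fold (let-7e) in males. Without male 104 weeks replicate 6 the males ran from 1.17-fold (let-7a and miR-98) to 1.53-fold (let-7b), with let-7e at 1.48-fold. By the F test for age, 3 of 8 members passed in females (let-7b, adjusted p = 0.0459; let-7e, adjusted p = 0.0335; let-7i, adjusted p = 0.00714), where 49.8% of all miRNAs passed. In males 4 of 8 passed (let-7b, adjusted p = 0.000819; let-7d, adjusted p = 0.00338; let-7e, adjusted p = 0.00909; let-7i, adjusted p = 0.00421), against 58.8% of all, and these 4 passed also without male 104 weeks replicate 6 or 2 weeks replicate 1. Adding the fold of 1.5 left 0 of 8 in females (36.7% of all miRNAs) and 2 of 8 in males, let-7b and let-7e (45.3% of all). That count takes the fold from means on the log2 scale. Without male 104 weeks replicate 6 let-7b (1.52-fold) and let-7e (1.51-fold) still reached it, and without 2 weeks replicate 1 let-7b did not (1.48-fold) while let-7i did (1.52-fold). The share of members that passed was below the share of all miRNAs in each case, but this was not tested. With 8 members, 1 more call would have put the F test share of either sex above that of all miRNAs. The call of let-7b in females held in 14 of 36 fits that left out 1 array, with an adjusted p of up to 0.138, and that of let-7e in 31 of 36.

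**Figure D1:**
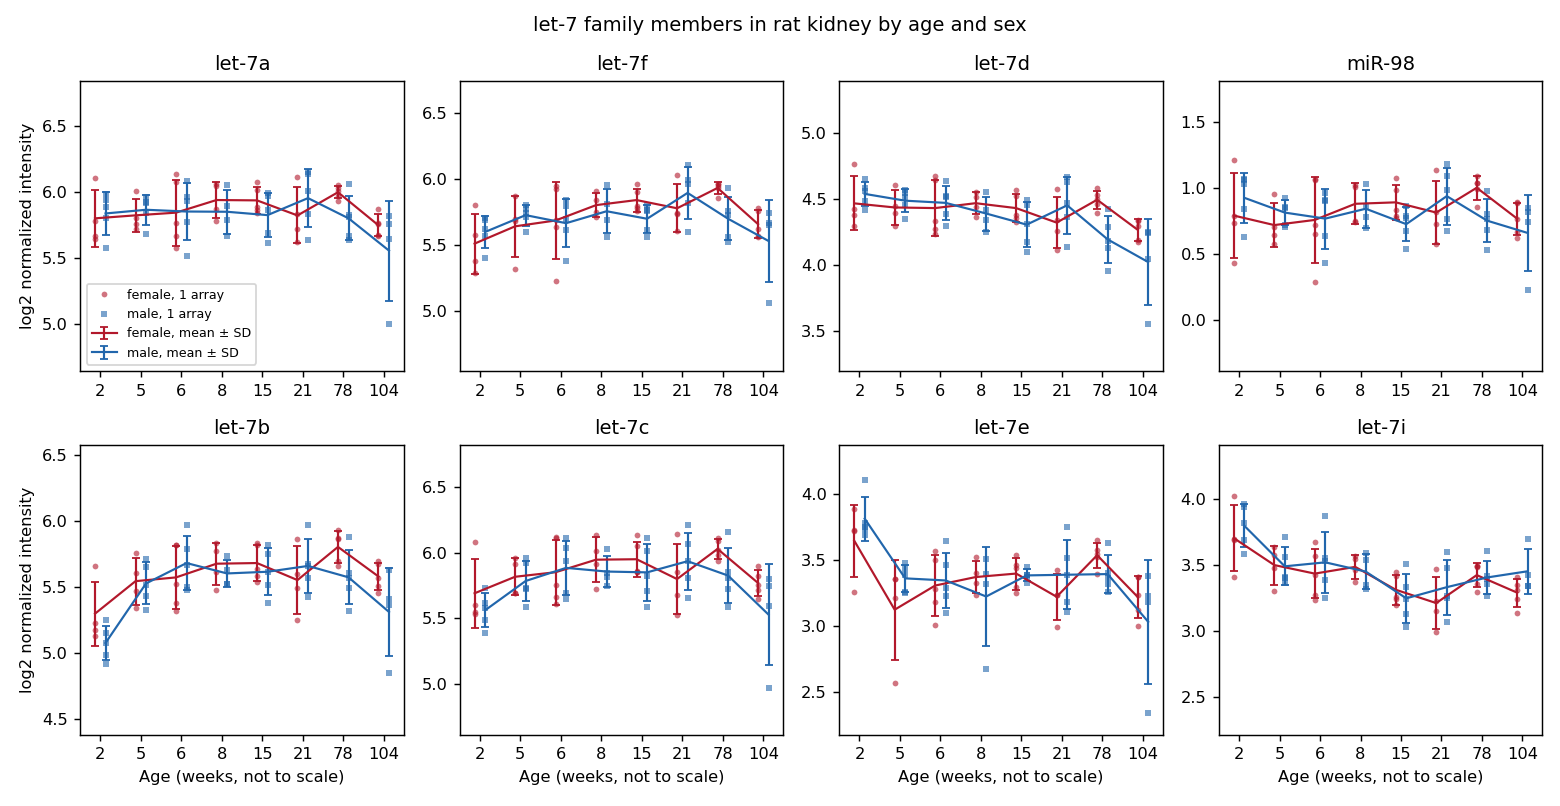
Log2 normalized intensity of the 8 members (1 panel each) against age in weeks, not to scale. Points are single arrays (circles, females; squares, males), and lines with bars are group means ± SD of 4 or 5 arrays. The panels all span the same range on the log2 scale. let-7b starts low at 2 weeks, let-7e and let-7i start high, and a single male array at 104 weeks lies under the rest in 7 panels.

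let-7a, let-7f, let-7d and miR-98 passed in neither sex around maturation and are given first, as the members steadier in that period. The placing is for that period only. In males let-7d passed the F test for age and also late in life, and let-7c, given with the members that moved, passed that F test in neither sex. For let-7f in females this placing is not sharp. The mean of let-7a (rno-let-7a-5p) at 2 weeks was 56.3 ± 8.84 (SD, n = 4) for the females. For the males it was 57.5 ± 6.14 (SD, n = 5). Its 13 female arrays of 5 to 8 weeks ran from 47.6 to 70.4 (median 55.9) and its 14 male arrays from 45.8 to 67.8. The 2-week arrays lay inside these ranges in both sexes, and the log2 difference, older minus 2 weeks, was 0.07 (95% CI −0.12 to 0.25) in females and 0.02 (95% CI −0.20 to 0.24) in males. miR-98, encoded beside a let-7f copy on the X chromosome, had differences of −0.01 (95% CI −0.25 to 0.24) and −0.12 (95% CI −0.32 to 0.08). let-7d had −0.02 (95% CI −0.19 to 0.15) and −0.09 (95% CI −0.28 to 0.10). let-7f had 0.20 (95% CI −0.00 to 0.40, adjusted p = 0.129) and 0.12 (95% CI −0.07 to 0.30, adjusted p = 0.313). None of these 4 passed in either sex, and in males all 4 intervals lay short of the differences of let-7b and let-7e given next. In females the interval of let-7f took in the difference of let-7b (0.30). There let-7f (0.20) also changed more than let-7c (0.18), which passed only in males.

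let-7b (rno-let-7b-5p) rose from 2 weeks to 5 to 8 weeks in both sexes. In males the 2-week arrays read 30.2, 33.7, 38.0, 35.6 and 31.7, and the 14 arrays of 5, 6 and 8 weeks ran from 40.0 to 62.8 (median 47.9). Every 2-week male array was below every older one, so the groups did not overlap. For this and the like counts below, the share over all 311 miRNAs was not taken, so they are not particular to a member. The log2 difference was 0.53 (SE 0.10), a 1.44-fold rise (limma, adjusted p = 4.79e-05). In females the 2-week arrays read 35.1, 50.5, 36.2 and 37.4 against 40.0 to 57.2 (median 48.7) in 13 older arrays. Of the 4 young females, 3 were below all 13, and replicate 4 lay among them. The female difference was 0.30 (SE 0.10), 1.23-fold (limma, adjusted p = 0.0217).

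let-7c (rno-let-7c-5p), which lies beside let-7b on chromosome 7, also read lower at 2 weeks. Its 2-week male arrays were at 42.0, 47.7, 53.2, 49.1 and 44.9, and the 14 older ones ran from 48.1 to 69.0 (median 56.8). Of the 5 young males, 3 were below all 14, and the difference of 0.28 (SE 0.11; 1.21-fold) passed in males (limma, adjusted p = 0.0358). In females the 2-week arrays were at 46.3, 67.6, 46.9 and 48.5 against 48.7 to 70.0 (median 60.4), and the difference of 0.18 (SE 0.10) did not pass (limma, adjusted p = 0.203). The call in males was lost without the 2-week male replicate 1 (0.24, adjusted p = 0.111) and, with an adjusted p of 0.0504 to 0.0783, without any one of replicates 2 and 5 at 2 weeks, replicate 3 at 5 weeks, replicates 2 and 5 at 6 weeks or replicate 4 at 8 weeks.

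let-7e (rno-let-7e-5p) moved the other way. Its 2-week male arrays read 12.9, 13.5, 13.3, 17.2 and 13.7, and the 14 arrays of 5 to 8 weeks ran from 6.39 to 12.5 (median 10.2). Every young male array was above every older one. The difference was −0.50 (SE 0.13), a 1.42-fold fall (limma, adjusted p = 0.00108). In females the 2-week arrays were at 13.3, 14.8, 9.54 and 13.2, and the older ones ran from 5.92 to 11.9. Of the 4 young females, 3 were above all 13 older ones, and the difference was −0.38 (SE 0.12; 1.30-fold; limma, adjusted p = 0.0102).

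let-7i (rno-let-7i-5p), the member farthest from let-7a in sequence, fell as well. The 2-week males read 12.0, 15.3, 15.6, 14.1 and 12.9 against 9.50 to 14.7 (median 11.1) in 14 older males, and 2 of the 5 were above all of these. The 2-week females ran from 10.6 to 16.2 against 9.40 to 12.8 (median 11.1), and 3 of the 4 were above all 13. The difference was −0.31 (SE 0.09; 1.24-fold) in males (limma, adjusted p = 0.00448) and −0.23 (SE 0.09; 1.17-fold) in females (limma, adjusted p = 0.036).

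In all, 3 of 8 members passed in this maturation contrast in females, where 37.3% of all miRNAs passed, and 4 of 8 in males, where 50.5% did. By direction, 1 member rose in females (15.4% of all miRNAs rose) and 2 fell (21.9% fell), and in males 2 rose (25.1%) and 2 fell (25.4%). No member reached the fold of 1.5, which 19.9% of all miRNAs did in females and 29.6% in males. The median of the 8 log2 differences was 0.03 in females and −0.04 in males, so that members going up and members going down cancelled in the family median. The difference between the sexes in this contrast was tested for each member, and none passed (10.9% of all miRNAs did). For let-7b, the fold appeared larger in males, but the male minus female difference was 0.23 (SE 0.15; limma, adjusted p = 0.407).

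Single arrays mattered more in females than in males. Without the 2-week male replicate 1, let-7b (0.49, adjusted p = 0.000435), let-7e (−0.53, adjusted p = 0.00172) and let-7i (−0.37, adjusted p = 0.00225) still passed. The 2-week female replicate 4 was the highest of all 74 arrays for 3 members. Without it, let-7b (0.42, adjusted p = 0.00248), let-7c (0.31, adjusted p = 0.0204) and let-7f (0.30, adjusted p = 0.0291) passed in females, while let-7e (−0.30, adjusted p = 0.071) and let-7i (−0.13, adjusted p = 0.337) did not. The call of let-7b in females was lost on leaving out any of the other 2-week females, replicate 3 (0.24, adjusted p = 0.103), replicate 5 (0.26, adjusted p = 0.0941) or replicate 6 (0.28, adjusted p = 0.0755). That of let-7i was also lost without replicate 5 (−0.23, adjusted p = 0.0721) or 6 (−0.24, adjusted p = 0.0703) and, with an adjusted p of 0.0503 to 0.0599, without replicate 3 at 5 weeks, 5 at 6 weeks or 6 at 8 weeks. let-7f passed in females also without replicate 6 at 5 weeks (0.24, adjusted p = 0.0483) or replicate 4 at 6 weeks (0.24, adjusted p = 0.0263). In males the calls of let-7b, let-7e and let-7i held in 38 of 38 such fits.

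**Figure D2:**
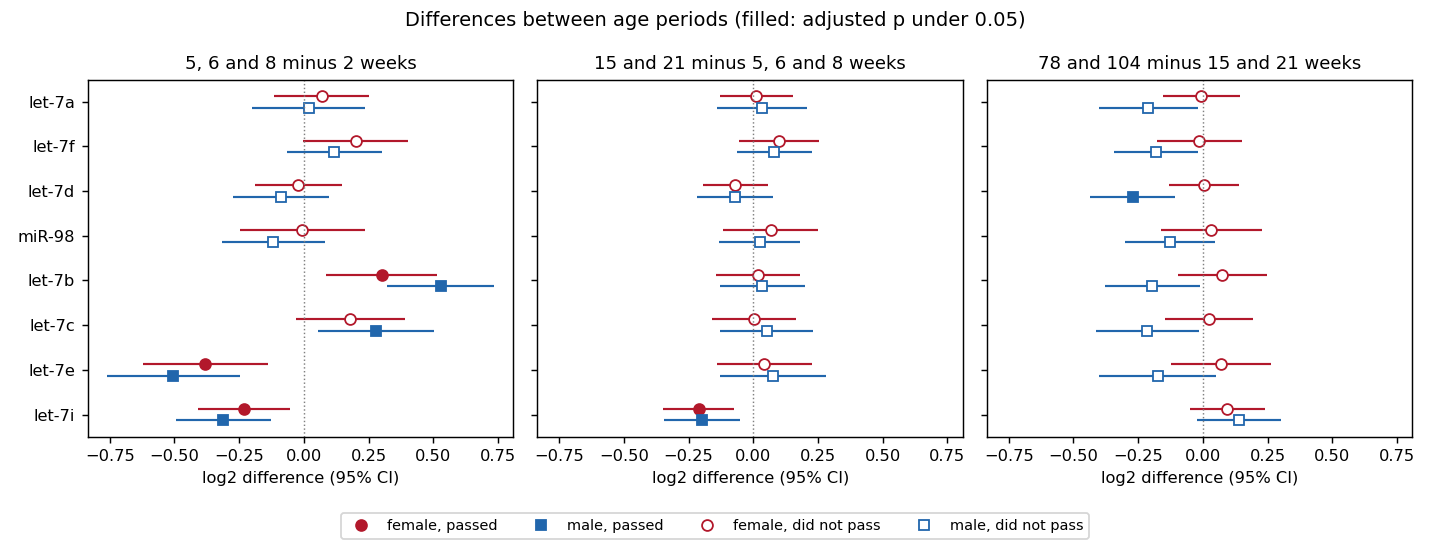
Log2 differences of the 8 members with 95% confidence intervals for 5, 6 and 8 minus 2 weeks (left), 15 and 21 minus 5, 6 and 8 weeks (middle) and 78 and 104 minus 15 and 21 weeks (right). Circles are females and squares males, filled where the adjusted p was under 0.05. On the left let-7b lies to the right of 0 and let-7e and let-7i to the left in both sexes, and in the middle let-7i is the only filled member.

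Young and older rats up to 8 weeks shared slides, so that each 2-week array could be set against the 5- to 8-week arrays of its sex on its own slide, a comparison added after the data had been seen. let-7b was higher in the older rats on 4 of 4 slides in females (by 0.17 to 0.46 on the log2 scale) and on 5 of 5 in males (by 0.44 to 0.71). let-7c was higher on 4 of 4 and 5 of 5. let-7e was lower on 4 of 4 in females (−0.75 to −0.01) and on 5 of 5 in males (−0.66 to −0.29). let-7i was lower on 4 of 4 and 5 of 5 as well, with sizes close to 0 on 1 female slide for let-7e and on 1 for let-7i. Of the members that did not pass, let-7f was higher on 3 of 4 female and 5 of 5 male slides (by 0.04 to 0.17 in males), and let-7d was lower on 3 of 4 and 5 of 5 (−0.18 to −0.01 in males). let-7a was higher on 2 of 4 and 3 of 5, and miR-98 was lower on 3 of 4 and 4 of 5. The share of all 311 miRNAs with such counts on the slides was not taken.

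**Figure D3:**
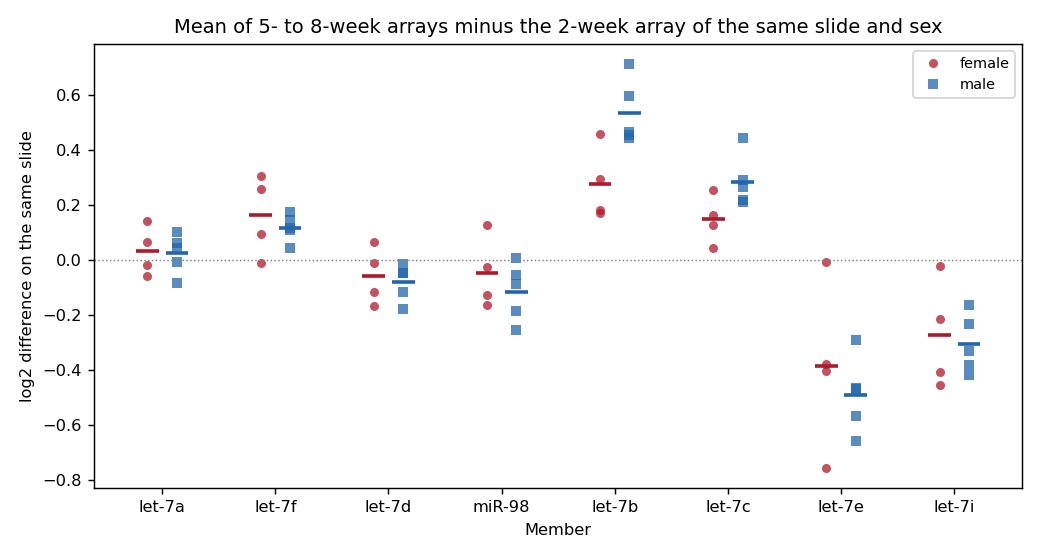
For each member, the mean log2 normalized intensity of the 5- to 8-week arrays minus that of the 2-week array of the same sex on the same slide. Circles are 4 female and squares 5 male 2-week arrays, and bars are their means. All points of let-7b and let-7c lie above 0 and all points of let-7e and let-7i below it. In males the points of let-7f also lie above 0 and those of let-7d below it, at smaller sizes, and let-7a lies on both sides.

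Because let-7b rose and let-7e fell, their ratio within an array changed more than either alone, and this ratio does not depend on how an array was scaled. The pair was chosen with these opposite changes already known, so a small p at maturation followed from the choice. The test is therefore no independent support for the changes, and their size is given as a description. The ratio is read only for its change, since the 2 miRNAs have different probes. In males the ratio was 2.34, 2.50, 2.85, 2.07 and 2.31 at 2 weeks and ran from 3.88 to 7.77 at 5 to 8 weeks. In females it was 2.64, 3.41, 3.79 and 2.84 at 2 weeks and ran from 4.29 to 9.16 at 5 to 8 weeks. No 2-week array reached the lowest older array of its sex. On the log2 scale the ratio went from 1.26 ± 0.17 (SD, n = 5) to 2.29 ± 0.28 (SD, n = 14) in males, a change of 1.03 or 2.04-fold (exact two-sided permutation test, p = 8.6e-05, the smallest that 11628 arrangements can give; adjusted over 4 tests, 0.000344). In females it went from 1.65 ± 0.24 (SD, n = 4) to 2.33 ± 0.28 (SD, n = 13), a change of 0.68 or 1.60-fold (exact two-sided permutation test, p = 0.00042, the smallest that 2380 arrangements can give; adjusted 0.00084). Leaving out 1 array at a time gave 0.97 to 1.09 in males and 0.59 to 0.77 in females, all past the threshold. From 15 weeks the ratio was level. The change from 15 and 21 to 78 and 104 weeks was 0.01 in females (exact permutation p = 0.854) and −0.03 in males (exact permutation p = 0.70), and the group means of the ratio stayed between 4.52 and 5.65 from 5 weeks on. The mean ratio of the 2-week females was 3.17 ± 0.528 (SD, n = 4). That of the 2-week males was 2.41 ± 0.287 (SD, n = 5), and the gap between them was not tested.

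**Figure D4:**
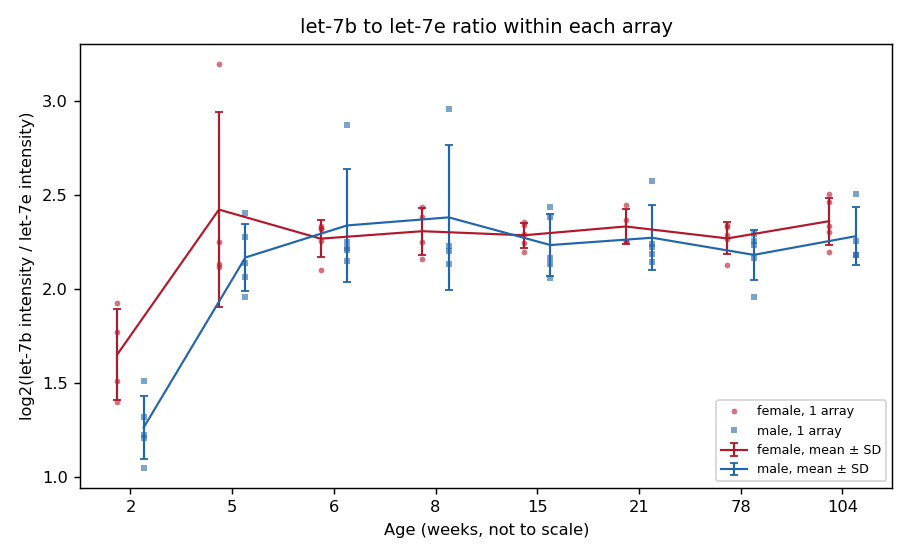
Log2 ratio of let-7b to let-7e normalized intensity within each array against age in weeks, not to scale. Points are arrays (circles, females; squares, males), and lines with bars are group means ± SD of 4 or 5 arrays. The 2-week arrays lie between 1.05 and 1.92, under every later array, and single high arrays stand out at 5 weeks in a female and at 6 and 8 weeks in males.

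The miRNAs that lie next to let-7 genes were described beside the members. miR-99b and miR-125a flank let-7e, miR-99a lies 639 bases from a let-7c hairpin, and miR-100 lies 6828 bases from a let-7a hairpin. The neighbours of let-7e are printed to show that they are unrelated in seed (bases 2 to 8, in capitals), so that their probes read other sequences.
rno-miR-99b-5p: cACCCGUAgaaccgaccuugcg
rno-miR-125a-5p: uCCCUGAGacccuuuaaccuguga
From 2 weeks to 5 to 8 weeks miR-99b fell in males by 0.62 on the log2 scale (1.54-fold; limma, adjusted p = 1.48e-07) and in females by 0.39 (1.31-fold; limma, adjusted p = 0.000697). miR-125a fell in males by 0.31 (limma, adjusted p = 0.00169), and its difference in females was −0.11 (limma, adjusted p = 0.504). Of the 3 mature miRNAs of the let-7e cluster, all 3 thus fell in males and 2 in females, where 25.4% and 21.9% of all miRNAs fell. miR-100 fell by 0.54 in males (limma, adjusted p = 2.58e-06) and by 0.49 in females (limma, adjusted p = 0.000466), while let-7a, from a gene downstream of it, did not pass, but let-7a has a second copy elsewhere with the same mature sequence. miR-99a had 0.17 in males (limma, adjusted p = 0.0787) and −0.01 in females beside the copy of let-7c. Of 15 passenger strands and neighbours on the array, 8 were among the 311 miRNAs tested, of which 3 passed in females and 4 in males, all lower. The shares that passed are close to those of all miRNAs (37.3% and 50.5%). The shares that were lower are above those of all miRNAs (21.9% and 25.4%), and this gap was not tested. The one not yet named is miR-125b, which fell by 0.19 in females (limma, adjusted p = 0.00573) and by 0.21 in males (limma, adjusted p = 0.0144).

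Of the passenger strands, the strands of a let-7 hairpin that are mostly degraded, let-7d-3p was detected on all 74 arrays and let-7a-1-3p on 35, and the other 7 were detected on none. let-7d-3p (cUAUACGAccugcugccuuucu, with the seed in capitals) had a log2 difference of 0.54 (SE 0.48) in females and 0.14 (SE 0.30) in males around maturation, so that its errors were several times those of the mature 5p strands and neither passed. miR-202-3p, listed beside the family and detected on all arrays, had −0.16 (SE 0.58) and 0.11 (SE 0.31).

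From 5 to 8 weeks to 15 and 21 weeks, let-7i fell again and the other members did not pass. Female arrays of let-7i ran from 9.40 to 12.8 (median 11.1, n = 13) and then from 7.97 to 11.1 (median 9.47, n = 9), and 7 of the 13 younger arrays were above all 9 adult ones. The difference was −0.21 (SE 0.07; 1.16-fold; limma, adjusted p = 0.0157). Male arrays ran from 9.50 to 14.7 (median 11.1, n = 14) and then from 8.15 to 12.1 (median 9.57, n = 10), with a difference of −0.20 (SE 0.07; 1.15-fold; limma, adjusted p = 0.0467). This was 1 of 8 members in each sex, against 27.3% of all miRNAs in females and 22.5% in males, and 10.3% and 9.65% of all were lower. The other members had differences between −0.07 and 0.10. Here the 2 sides lay on different slides apart from 1 array, so age and slide can hardly be told apart. With slide as a fixed block the female difference was −0.28 and did not pass (adjusted p = 0.293), and in males the block could not be fitted. By the second probe of let-7i alone neither sex passed (−0.19, adjusted p = 0.0565, in females and −0.18, adjusted p = 0.0926, in males). The male call held in 20 of 38 fits that left out 1 array, with an adjusted p of up to 0.109. The female call was lost without the 21-week replicate 3 (−0.18, adjusted p = 0.0588), and with another background correction (normexp) the female difference turned to 0.10 (adjusted p = 0.65).

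Late in life no member passed in females. From 15 and 21 to 78 and 104 weeks their log2 differences ran from −0.01 to 0.09, 0 of 8 passed by limma and 0 of 8 had an unadjusted p under 0.05, where 9.32% of all miRNAs passed. Female 78-week arrays read high and 104-week arrays low within this narrow range. let-7a, for example, was at 62.8, 64.3, 65.5, 61.2 and 66.3 at 78 weeks and at 58.7, 54.1, 51.2, 54.3 and 51.0 at 104 weeks. Against 15 and 21 weeks the differences were 0.12 (SE 0.09; limma, adjusted p = 0.452) and −0.13 (SE 0.09; limma, adjusted p = 0.444), and none of the members passed at either age (7.40% and 6.75% of all miRNAs did).

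In males let-7d (rno-let-7d-5p) fell late in life. Its 10 arrays of 15 and 21 weeks ran from 17.1 to 25.4 (median 21.3), and its 9 arrays of 78 and 104 weeks from 11.7 to 21.5 (median 18.1). Of the 10 adult males, 5 were above all 9 old ones, and the 2 sets overlapped. The difference was −0.27 (SE 0.08; 1.21-fold; limma, adjusted p = 0.00904). Without the 104-week replicate 6 it was −0.19 (adjusted p = 0.0385). let-7d was 1 of 8 members, where 29.6% of all miRNAs passed and 20.3% were lower. let-7a (−0.21, adjusted p = 0.0906), let-7b (−0.20, adjusted p = 0.10), let-7c (−0.21, adjusted p = 0.0956) and let-7f (−0.18, adjusted p = 0.0847) had an unadjusted p under 0.05 and did not pass, and let-7i had 0.14 (adjusted p = 0.21). Leaving out male 104 weeks replicate 2 or 3, 78 weeks replicate 3 or 21 weeks replicate 2 brought 1 or more of let-7a, let-7b, let-7c and let-7f past the threshold, with an adjusted p of 0.0292 to 0.0499. The call of let-7d was lost with other scalings of the arrays, at −0.04 (adjusted p = 0.887) when the percentile came from the 166 miRNAs that every array detected and at −0.06 (adjusted p = 0.604) with quantile normalization, and under both of these let-7i passed as higher (0.37, adjusted p = 0.0056, and 0.31, adjusted p = 0.0113). It was also lost with the percentile of every miRNA (−0.26, adjusted p = 0.145) and with normexp (−0.23, adjusted p = 0.0886). The arrays of 15 to 104 weeks shared slides, and with slide as a fixed block let-7a, let-7b, let-7c, let-7d and let-7f all passed, with differences of −0.28 to −0.20 and adjusted p from 0.000205 to 0.0171. The same 5 passed with scan day as a block, and all but let-7b with slide as a random block.

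The 2 late ages were also set singly against 15 and 21 weeks in males, a comparison added after the data had been seen. let-7a, let-7b, let-7c, let-7d and let-7f passed at 104 weeks against 15 and 21 weeks, with differences of −0.36 to −0.27 (28.9% of all miRNAs passed and 19.0% were lower), and 0 of 8 members passed at 78 weeks (22.2% of all did), where let-7d had −0.19 (adjusted p = 0.185). The ages of 78 and 104 weeks were not tested against each other. The 5 calls fell to 0 with the percentile of every miRNA and with normexp, to 1 (let-7i, higher) with the percentile of the miRNAs that every array detected and to 1 (let-7d) with all miRNAs tested. With slide or scan day as a fixed block all 5 remained and miR-98 joined them. Each of the 5 calls was lost without 1 rat. let-7a read 50.2, 54.2, 56.6 and 32.0 in the 4 males of 104 weeks, where the lowest value is replicate 6, and without that array 0 of 8 members passed and let-7a differed by −0.15 (adjusted p = 0.401). let-7a was also lost without any one of 4 adult males (15 weeks replicates 2 and 4, 21 weeks replicates 1 and 3; adjusted p of 0.0545 to 0.0603) and let-7b without 15 weeks replicate 4 (adjusted p = 0.0516) or 21 weeks replicate 3 (adjusted p = 0.0559). let-7f passed in 17 of 38 such fits.

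Marker levels moved over the same periods. Of 4 leukocyte miRNAs, miR-223, miR-150 and miR-142-3p were detected on all 74 arrays and miR-142-5p on 10. Their summed normalized intensity ran from 2.71 to 3.70 in males of 15 and 21 weeks and from 4.04 to 7.67 at 78 and 104 weeks. In females it ran from 2.44 to 2.95 and from 2.57 to 3.55. The sum of 8 renal epithelial miRNAs ran from 87.0 to 108 and then from 67.7 upwards in the males, with the highest of these inside the adult range, and from 97.8 to 111 and then from 92.2 to 116 in the females. Around maturation the leukocyte sum was 1.67 to 1.84 in 2-week males and 2.48 to 3.34 at 5 to 8 weeks, and the epithelial sum 64.9 to 77.3 and then 79.1 to 94.5. In females the leukocyte sum was 1.98 to 2.11 and then 2.47 to 3.30, and the epithelial sum 77.2 to 84.1 and then 76.3 to 97.3. The sum of 2 erythroid miRNAs (miR-451, detected on all 74 arrays, and miR-144, on 5) was also taken. In males it ran from 1.03 to 2.18 at 15 and 21 weeks and from 1.99 to 4.43 at 78 and 104 weeks. In females it ran from 0.901 to 1.39 and from 1.30 to 3.72. Its 2-week values lay inside the range at 5 to 8 weeks in both sexes. The part that these cell types had in the let-7 differences was not tested.

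Between the sexes few members passed, and which did so at 78 and 104 weeks turned on the scaling and on blocks for slide or scan day. At 2, 5, 6, 8, 15 and 21 weeks, 0 of 8 passed by limma and 0 of 8 had an unadjusted p under 0.05, where 10.9%, 0%, 0.322%, 1.93%, 8.04% and 10.3% of all miRNAs passed. At 78 weeks let-7d passed. Its female arrays read 21.1, 22.1, 23.9, 22.7 and 23.1 and its male arrays 17.5, 21.5, 19.5, 18.1 and 15.5, so that 4 of 5 males were below all 5 females. The male minus female difference was −0.30 (SE 0.10; 1.23-fold; limma, adjusted p = 0.0299), 1 of 8 members against 20.3% of all miRNAs (15.4% lower in males). The call was lost without male replicate 6 (−0.24, adjusted p = 0.125), male replicate 2 (−0.28, adjusted p = 0.0608), female replicate 4 (−0.28, adjusted p = 0.0609) or female replicate 6 (−0.29, adjusted p = 0.0568). It was also lost with each of 4 other scalings (−0.22 to −0.06), with normexp (−0.14), with all miRNAs tested (adjusted p = 0.0677), with a separate fit for each age (adjusted p = 0.0532) and by the methods' t-test (adjusted p = 0.0564). With slide as a fixed block 4 members passed at 78 weeks (let-7b, let-7d, let-7f and miR-98), and with scan day 3 (let-7d, let-7f and miR-98). At 104 weeks 0 of 8 passed (20.3% of all did) and 2 of 8, let-7b and let-7d, had an unadjusted p under 0.05. Without male replicate 2 both passed (−0.38, adjusted p = 0.0454, and −0.32, adjusted p = 0.0455), and without male replicate 3 let-7d did (−0.32, adjusted p = 0.0374). With slide or scan day as a fixed block let-7b, let-7c and let-7d passed at 104 weeks, all lower in males. The age by sex interaction was passed by 0 of 8 members, against 27.7% of all miRNAs, and its smallest unadjusted p was that of let-7d (0.0435, adjusted p = 0.127). With slide or scan day as a fixed block 3 of 8 passed the interaction. The sexes differed in the late-life change of let-7d by −0.28 (SE 0.10; limma, adjusted p = 0.0473), a call that held in 44 of 74 fits with 1 array left out and was lost without the male 104-week replicate 6 (−0.20, adjusted p = 0.15), and 24.1% of all miRNAs passed that test. That sex difference was passed by 3 members with slide and by 4 with scan day as a fixed block, and by none with 3 of the other scalings. The sexes did not pass for any member in the step to adulthood (3.86% of all).

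The members rose and fell together from rat to rat. With the group means taken out, Pearson's r between pairs of members over 74 arrays had a median of 0.78 over the 28 pairs, from 0.18 (let-7e and let-7i) to 0.96 (let-7a and let-7d). The arrays share 1 scaling factor for all members, which can raise such values, and its part was not tested. The 4 pairs that differ at 1 position had a median r of 0.92, the 7 pairs at 2 positions 0.80 and the 9 pairs at 3 positions 0.73. The order did not continue, with 0.78 for the 6 pairs at 4 positions, 0.18 for the pair at 5 and 0.67 for the pair at 6. Over the 16 group means the pairs spread far wider, from −0.67 (let-7b and let-7i) to 0.93 (let-7b and let-7c). These values describe the arrays, and no test was made of them.

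The miRNAs outside the family whose group means ran most like those of a member were listed among 157 candidates detected on all arrays. let-7b ran with the epithelial miR-200b-5p (r = 0.94 over 16 group means) and miR-192-5p (0.91), and let-7c with miR-200b-3p (0.90) and miR-429 (0.88), a member of the miR-200 family. let-7i ran with miR-214-3p (0.95) and miR-25-3p (0.93). let-7e ran with miR-872-5p (0.83) and miR-342-5p (0.81). Without the 2-week groups these values were 0.57 and 0.45 for let-7e and 0.84 and 0.72 for let-7b. They were 0.85 and 0.82 for let-7c and 0.85 and 0.83 for let-7i. The miRNAs named here were picked as the closest of 157 candidates, and no test was made of them. let-7d ran with miR-103-3p (0.93) and miR-151-5p (0.90), let-7a with miR-352 (0.86) and miR-151-5p (0.78), let-7f with miR-429 (0.85) and miR-30c-2-3p (0.83), and miR-98 with miR-10b-5p (0.81) and miR-151-5p (0.79).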

How the data were processed

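Kidney miRNA was measured in 74 rats with 1-colour Agilent arrays that carry 677 rat miRNAs, 20 spots each (2 probes). Per the file headers, Agilent Feature Extraction 10.7.3.1 subtracted background and combined the spots into a total gene signal; the deposited intensity was not normalized between arrays, and an undetected miRNA holds 0.1. The study's processed value table was not used, because only 5 of its 74 columns equalled the signal of their own sample. Whether samples were exchanged in that table or among the scanner data was not settled. All groups here rest on the labels of the scanner data.

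Each signal was divided by the array's 75th percentile over the 311 miRNAs detected on at least 1 array, values under the floor of 0.0171 were set to it, and log2 was taken. Groups came from the sex and age in the labels. limma 3.58.1 (R 4.3.3, lmFit and eBayes) was fitted to all 311 miRNAs within each sex for age, and with 16 group means for sex differences and interaction, with Benjamini-Hochberg adjustment; the let-7b to let-7e ratio had an exact permutation test. Contrasts were 5, 6 and 8 minus 2 weeks (maturation), 15 and 21 minus 5, 6 and 8 weeks (step to adulthood) and 78 and 104 minus 15 and 21 weeks (late life). All members and a list of passenger strands and neighbours were named, and the members and lists were chosen with earlier results of these data known. On simulated data for maturation (311 miRNAs), log2 changes of 0.3, 0.5 and 1 were recovered in 25%, 60% and 85% of cases in females and in 35%, 60% and 80% in males. The changed miRNAs, 20 for each size, were drawn at random from all 311 and kept their own spread. These rates are thus not those of the let-7 members. The number of arrays limits the precision. Alternatives changed scaling, floor, background correction, miRNAs tested, probes, blocks (statmod 1.5.0 for random blocks), test and arrays.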

Additional observations from a re-analysis of the deposited data

Results flagged for a closer look

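Of 144 groups of 4 or 5 arrays (8 members and the let-7b to let-7e ratio in 16 groups), 7 held a sample far from the others, where chance flags about 1 in 20, or 7.2 of these. Of the 7 flags, 4 fell in the 16 groups of the let-7b to let-7e ratio, which is above 1 in 20. The pooled count thus does not describe this ratio. The ratio stood high in all 4 arrays. It was 9.16 in female 5 weeks replicate 6 (others 4.33 to 4.75), 7.31 in male 6 weeks replicate 2 (4.43 to 4.76), 7.77 in male 8 weeks replicate 3 (4.38 to 4.69) and 5.95 in male 21 weeks replicate 1 (4.41 to 4.73). In female 5 weeks replicate 6 and male 8 weeks replicate 3, let-7e was 5.92 and 6.39, the lowest of their age periods, while let-7b was 54.2 and 49.6, inside its range. let-7c was 67.6 in female 2 weeks replicate 4 (others 46.3 to 48.5). let-7e was 17.2 in male 2 weeks replicate 4 (others 12.9 to 13.7). let-7f was 33.5 in male 104 weeks replicate 6 (others 50.3 to 53.7).

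The late-life change of let-7d differed between the sexes by −0.28 (log2, the male change less the female one) by a test of the difference itself (limma, adjusted p = 0.0473). The male change was −0.27 and the female change 0.00. What these arrays and the sex difference of let-7d come from was not tested.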

How the results depend on the processing

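The number of 8 members that passed is given here under each alternative where it moved by over 1.5 times, with the number reported above in brackets, and the cause was not tested. Scaling by the 75th percentile of every miRNA on the array gave these counts: age in females 0 [3], age in males 1 [4], maturation in females 1 [3] and in males 2 [4], step to adulthood 0 in each sex [1], late life in males 0 [1], 104 weeks in males 0 [5], sex difference at 78 weeks 0 [1] and sex difference of late life 0 [1]. With the percentile over miRNAs detected on all arrays they were step in males 0, 104 weeks in males 1, sex difference at 78 weeks 0 and of late life 0. With the median they were age in females 1, step in males 0, sex difference at 78 weeks 0 and of late life 0. With quantile normalization they were step 2 in each sex, late life in males 3, interaction 1 [0], sex difference at 104 weeks 2 [0] and at 78 weeks 0. With normexp background correction they were 0 for age in females, maturation in females, step in each sex, late life and 104 weeks in males, and both sex differences. There let-7i in the female step to adulthood reversed from −0.21 to 0.10 (adjusted p = 0.65), in a setting whose median over all miRNAs was −0.28. With all miRNAs tested, counts were maturation in females 1, step in males 0, 104 weeks in males 1 and both sex differences 0. Setting the floor before scaling gave 0 for the step in males and the sex difference of late life. Probe 1 alone gave 1 [0] at 78 weeks in males, and probe 2 alone gave 0 for the step in each sex. The fit of 16 group means gave 2 for late life in males. A separate fit for each age and the methods' t-test each gave 0 for the sex difference at 78 weeks.

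A fixed block for slide was also fitted, and its counts were age in females 5, step in females 0, late life in males 5, 78 weeks in males 1, interaction 3, sex difference at 78 weeks 4, at 104 weeks 3 and of late life 3; in males the step and the age effect could not be fitted, since slides and ages cannot be told apart there. With slide as a random block they were late life in males 4, interaction 1, sex difference at 104 weeks 1 and of late life 2. With scan day as a block they were age in females 7 and in males 8, late life in males 5, interaction 3, sex difference at 78 weeks 3, at 104 weeks 3 and of late life 4.

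Leaving out 1 array at a time gave 1 to 4 for age in females, 4 to 5 for age in males, 1 to 4 for maturation in females, 3 to 4 for maturation in males, 0 to 1 for the step in each sex, 1 to 4 for late life in males, 0 to 6 at 104 weeks in males, 0 to 1 for the interaction and the sex difference at 78 weeks, and 0 to 2 for the sex differences at 104 weeks and of late life.

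Replicate numbers name independent rats and pair nothing: the mean correlation of deviations was 0.04 over 28 same-numbered pairs and −0.00 over 143 others. With the replicate number as a block, counts were 3 [5] at 104 weeks in males, 0 [1] for the sex difference of late life, 2 for age in females, 5 for age in males, 3 and 4 for maturation in females and males, and 1 for the step in each sex, late life in males and the sex difference at 78 weeks.

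The ratio of let-7b to let-7e kept its direction and its call at maturation in both sexes under all 6 other settings run and with each array left out. As the pair was chosen for its opposite changes, these calls are no independent support for them. In males, let-7b and let-7e kept their maturation calls in 15 of 15 other settings and let-7i in 14 of 15. In females let-7b did in 11, let-7e in 13 and let-7i in 11 of 15. Changes of 0.3 on the log2 scale, the size of most here, are near what groups of 4 or 5 arrays can show.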
